A study of Mus musculus with 374 samples.

Results

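CD44-high erythroblasts were compared with CD44-low erythroblasts from the marrow of the same mouse. Erythroblasts are the nucleated precursors of red cells, and each of the 96 in the count matrix had its fluorescence recorded when it was sorted into a well (index data). The members were chosen by the CD44 signal alone, on which the wells were ranked. The 32 with the highest signal, 3202 to 6170 in arbitrary units, made up the CD44-high group, and the 32 with the lowest, 976 to 2058, the CD44-low group. The 32 wells between them, from 2060 to 3195, entered neither group and are given beside them as CD44-mid. The groups therefore hold 64 of the 374 wells of the series. The cuts run through a continuous range, since the signal was 2058 and 2060 on either side of the lower cut and 3195 and 3202 on either side of the upper.

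CD44 is an adhesion receptor that binds hyaluronan. Erythroblasts carry less of it at each step of terminal differentiation, while they divide a few more times, shrink, condense the nucleus and fill with haemoglobin. Later they expel the nucleus, and the resulting reticulocytes clear their mitochondria and ribosomes. Ter119 is a surface antigen that marks the erythroid lineage.

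All cells came from 1 female C57BL/6 mouse aged 10 to 13 weeks and were sorted on 1 plate. Every erythroblast had passed the same gate, positive for Ter119 and CD44 with middle to high forward scatter, so that the smallest precursors are outside both groups. Transcripts were measured by CEL-seq2, in which the 3' ends of polyadenylated RNA are marked by well and by UMI, a random tag that lets copies of a molecule be counted once. UMIs were summed over the wells of a group and scaled to CPM, in which the total of mouse UMIs is set to the same value in each group. Each group is 1 sample, since cells of 1 animal are not replicates, and no test between groups was possible. The intervals in parentheses are 95% exact intervals for counting error only. They say nothing about how another mouse would differ.

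The groups differed in measures that the choice of wells had not used. Forward scatter (FSC-A, which follows cell size) had a median of 129500 in CD44-high, 111000 in CD44-mid and 107500 in CD44-low. In 14 of the 32 CD44-high wells it lay above the highest CD44-low well. Ter119 went the other way, with medians of 5702.5, 6213.5 and 7881.5, and the groups overlapped over most of the range, from 3046 to 11382 in CD44-high and from 3790 to 16431 in CD44-low. Over the 96 wells Spearman's rho with CD44 was 0.51 for FSC-A and -0.37 for Ter119, a description of cells that share 1 mouse, 1 stain and 1 sort. Median c-Kit, a progenitor receptor, was 129 in CD44-high (-93 to 722) and 60 in CD44-low (-111 to 460). Only 3 CD44-high wells lay above the highest CD44-low well, and all erythroblast wells lay below every sorted progenitor/stem well. The transcript of CD44 itself could not be followed, because Cd44 had 0 UMIs in both groups, where 3 UMIs would make 10.75 CPM in CD44-high and 17.7 CPM in CD44-low.

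CD44-high cells gave more RNA. They held 279069 UMIs on mouse genes with a median of 8212 per well (466 to 20457), against 218521 with a median of 6343 in CD44-mid and 169138 with a median of 5119 (2425 to 9175) in CD44-low. The UMIs on ERCC, synthetic RNA added to each well, were 12655, 13574 and 12219. Each ERCC UMI thus stood beside 22.1, 16.1 and 13.8 mouse UMIs in the order CD44-high, CD44-mid and CD44-low. The number of genes with a UMI had a median of 2461 in CD44-high and 1463 in CD44-low. It still differed after each well had been thinned to 2000 UMIs, with medians of 1013 in 31 wells and 740 in 32. The plate was not balanced. Row C held 11 CD44-high and only 3 CD44-low wells, whereas rows D, E and F held 21 and 29. In a comparison with the summed profiles of the sorted populations, each well left out of its own sum, 95 of the 96 wells were nearest to erythroblasts. The exception, a CD44-high well with 466 UMIs, was nearest to granulocytes. Without it 359 genes were 2-fold higher and 35 lower, against 360 and 35 with it.

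**Figure D1:**
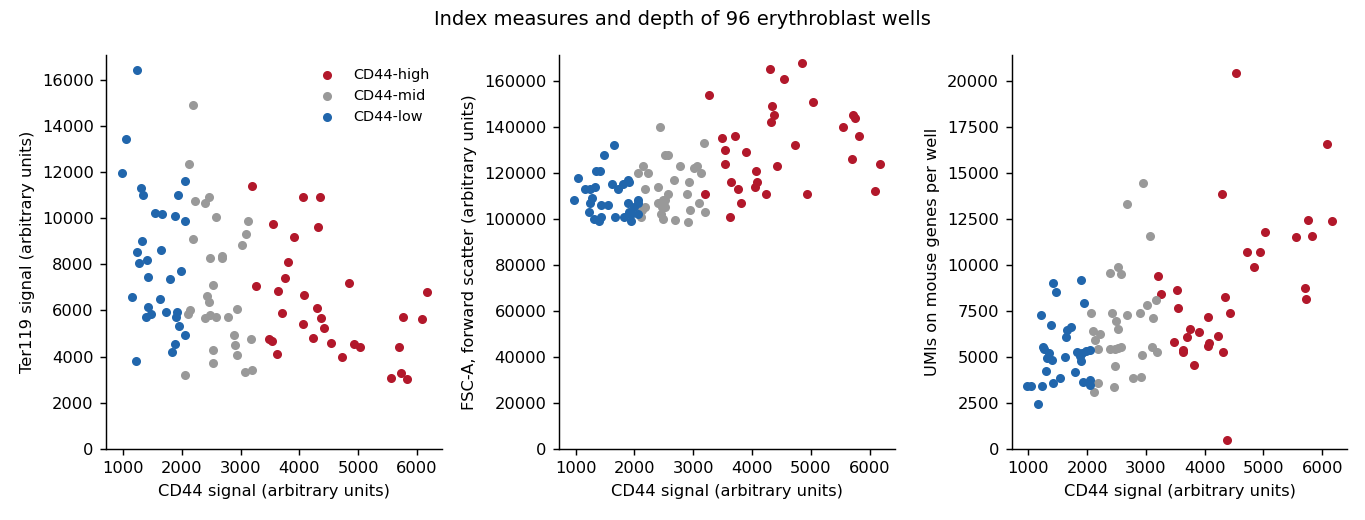
Each point is 1 of the 96 erythroblast wells, coloured by CD44 group. The panels plot Ter119 signal, FSC-A (both in arbitrary units) and UMIs on mouse genes against the CD44 signal. FSC-A and UMIs are higher on the right and Ter119 is lower, with wide overlap; the median number of UMIs is 8212 in CD44-high and 5119 in CD44-low.

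Genes were compared where both groups together had at least 50 UMIs, which 1335 genes did. Of these, 360 were at least 2-fold higher in CD44-high (27.0% of all genes compared) and 35 at least 2-fold lower (2.62%). These shares are the background for every count below. The median log2 ratio of CD44-high over CD44-low was 0.37. Adult globins took 15.3% of the UMIs of CD44-high and 33.1% of CD44-low, and in CPM every other gene shares what is left. With the globins and Gm42418, the most abundant noncoding RNA, left out of the total, the median was -0.03 and the counts were 237 higher and 108 lower. TMM factors gave 257 and 89, and scran size factors 244 and 168. Scaled to ERCC, which keeps the difference in RNA per cell, the median was 1.04, with 690 genes higher and 6 lower. The share of genes that were higher among those past 2-fold was thus 91.1% for CPM, 68.7% without globins, 74.3% with TMM, 59.2% with scran and 99.1% for ERCC. Ratios below are for CPM and are best read against the median of 0.37. A gene with equal UMIs in both groups has a log2 ratio of -0.72. Per ERCC UMI every log2 ratio is 0.67 higher than for CPM, so that genes and lists given below at values between -0.67 and 0 lie above 0 on that scale.

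The CD44-mid wells had no part in the ratios. Their CPM lay between those of the outer groups for 333 of the 360 higher genes (92.5%) and 32 of the 35 lower genes (91.4%). It did so for 61.0% of all 1335 genes and 47.9% of those past 2-fold in neither direction. Genes picked for a wide gap leave more room for a value between, so the large shares were in part set by the choice. Counted per ERCC UMI, the few lower genes of that scale had a smaller share between than all genes (values in the last section). For the higher genes the median log2 ratio over CD44-low was 0.64 in CD44-mid and 1.54 in CD44-high. For the lower genes it was -0.42 and -1.28.

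The adult globins, the oxygen carriers of the red cell, took a smaller share of the UMIs in CD44-high. Per well they took 3.53% to 39.3% of the UMIs in CD44-high, with a median of 15.5%, and 15.0% to 52.3% with a median of 34.9% in CD44-low. In 14 CD44-high wells the share was below that of every CD44-low well. The CD44-mid median, 32.8%, was close to that of CD44-low. The beta globin Hbb-bs had 21 to 1075 UMIs per CD44-high well (median 495.5) and 242 to 1128 per CD44-low well (median 664). The alpha globin Hba-a1 had 32 to 957 (median 468) and 266 to 820 (median 521.5). In UMIs per well the groups therefore overlapped over most of the range, while the totals they are a share of were larger in CD44-high.

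Summed over wells, the log2 ratio was -1.18 (-1.21 to -1.15) for Hbb-bs, -1.00 (-1.03 to -0.97) for Hba-a1, -1.37 (-1.42 to -1.32) for Hba-a2 and -0.98 (-1.03 to -0.94) for Hbb-bt. For the 4 together it was -1.12 (-1.14 to -1.10) for CPM and -0.45 per ERCC UMI. Hba-a1 and Hba-a2 are near-identical copies, as are the beta genes in part, so the split between copies is uncertain. Alpha and beta chains were in similar proportion. The number of alpha UMIs for each beta UMI was 0.886 (0.869 to 0.903) in CD44-high, 0.855 (0.841 to 0.869) in CD44-mid and 0.888 (0.874 to 0.903) in CD44-low. The embryonic globins Hbb-y, Hbb-bh1 and Hba-x together had 13 UMIs in CD44-high and 11 in CD44-low, too few to compare. Globin RNA was also found where it is not made, at a median of 72 UMIs (1.67%) per T lymphocyte well and 59 (1.63%) per granulocyte well, which is the background of these wells. Single wells of other populations reached 18.1% (B lymphocytes), 16.7% (progenitor/stem cells) and 12.0% (T lymphocytes), above the lowest CD44-high wells. The lowest CD44-low well had 801 and the lowest CD44-high well 70.

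The promoters of the 4 adult globin genes are shown because these genes took 33.1% of the UMIs of CD44-low. Each window runs from 120 bases before the annotated start to base 20 of the transcript (RefSeq, GRCm38.p6), in the direction of transcription, with CCAAT, CCACACCC and TATAA in capitals. Hba-a1 lies at chr11:32283552-32283691 (+), Hba-a2 at chr11:32296372-32296511 (+), Hbb-bs at chr7:103827909-103828048 (-) and Hbb-bt at chr7:103813904-103814043 (-).
Hba-a1: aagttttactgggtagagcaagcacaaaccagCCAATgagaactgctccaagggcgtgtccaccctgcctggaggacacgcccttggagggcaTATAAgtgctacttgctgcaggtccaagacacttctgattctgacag
Hba-a2: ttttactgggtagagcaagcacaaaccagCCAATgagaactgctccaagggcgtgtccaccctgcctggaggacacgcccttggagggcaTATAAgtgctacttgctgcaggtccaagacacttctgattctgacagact
Hbb-bs: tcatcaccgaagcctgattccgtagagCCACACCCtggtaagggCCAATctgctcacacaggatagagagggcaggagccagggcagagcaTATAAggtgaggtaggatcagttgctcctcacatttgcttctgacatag
Hbb-bt: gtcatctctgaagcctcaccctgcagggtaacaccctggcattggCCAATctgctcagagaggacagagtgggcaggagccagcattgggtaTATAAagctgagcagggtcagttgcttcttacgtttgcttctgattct
With the start counted as 1, CCAAT began at -88 in Hba-a1, -91 in Hba-a2, -76 in Hbb-bs and -75 in Hbb-bt, and TATAA at -27, -30, -29 and -28. CCACACCC, a form of the CACCC box, was found in the Hbb-bs window alone of these 4, at -93. On either strand of 300-base promoters, CCAAT was present in 37.9%, TATAA in 25.5% and CCACACCC in 3.57% of 27025 genes. Among the 26 lower protein-coding genes with a promoter in the table the shares were 53.8%, 38.5% and 11.5%, globins included. Among 704 protein-coding genes compared that were past 2-fold in neither direction they were 46.0%, 13.9% and 3.84%. Searched the same way, AGATAA, a form of the GATA motif, was in 15.4% of the lower genes, 5.97% of those past neither and 11.4% of all. These are matches of letters in a window, and AGATAA and TATAA can share bases.

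On the CD44-high side the ribosome stood out. Of the 81 genes on the list of cytosolic ribosomal proteins, the protein part of the translating ribosome, 62 had enough UMIs and 61 of those were at least 2-fold higher in CD44-high, where 27.0% of all genes were. The remaining member, Rps29, had a log2 ratio of 0.88 (0.45 to 1.33). The list median was 1.59, and the summed UMIs were 15592 in CD44-high, 6093 in CD44-mid and 3176 in CD44-low, a 2.98-fold ratio of CPM (log2 1.57, 1.52 to 1.63). Under scran factors 52 members were past 2-fold and without globins in the total 48. Both subunits took part, with 33 of 33 members higher for the large subunit and 28 of 29 for the small. The list was matched by symbol and holds a few paralogs and copies, such as Rps12l1.

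Globins do not enter the next measure. As a share of the UMIs that were not globin, ribosomal protein transcripts took 1.21% to 9.80% per CD44-high well (median 6.29%), 0.423% to 8.84% (median 2.63%) in CD44-mid and 0.522% to 7.36% (median 1.97%) in CD44-low. The share was above the CD44-low median in 31 CD44-high wells and above the highest CD44-low well in 9. The progenitor/stem cells of the same plate had a median of 6.25%, and the granulocytes 0.781%. Rplp1, part of the ribosomal stalk, had 1 to 83 UMIs per CD44-high well (median 31.5) and 0 to 34 per CD44-low well (median 3), with a log2 ratio of 1.70 (1.49 to 1.93). Rps18 was seen in 28 of 32 CD44-high wells and 9 of 32 CD44-low wells, with a log2 ratio of 2.47 (1.77 to 3.26). Rps25 had 227 and 26 UMIs (2.40, 1.81 to 3.05) and Rpl32 had 429 and 60.

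Another 133 of the genes compared were pseudogenes whose transcript was closest in sequence to that of a ribosomal protein gene, and 127 of them were past 2-fold, with a median of 1.69. Their sequence matched the coding transcript at a median identity of 98.7%, so reads of the gene itself could have been counted on them. They held 17950 UMIs in CD44-high and 3424 in CD44-low, against 15312 and 3135 on the ribosomal protein genes compared. The shares per well given above leave these copies out. Without the ribosomal protein genes and these copies, 172 of 1140 genes (15.1%) were at least 2-fold higher and 35 (3.07%) lower, with a median of 0.22. The 1140 are not free of ribosomal protein sequence. Genes named as copies but annotated as protein coding, such as Rpl9-ps6 and Rps12-ps3, stayed among them.

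Many ribosomal protein mRNAs begin with C and a run of pyrimidines at the cap, the 5' terminal oligopyrimidine tract through which their translation is controlled. A start with C and at least 4 further C or T was found at the annotated start of 11 of the 44 ribosomal protein genes with a promoter in the table (25.0%). The share was 2.49% of all 27025 genes, 3.74% of 107 other protein-coding genes that were 2-fold higher, and 0 of 26 that were lower. The contrast was smaller when the match could lie within 5 bases of the annotated start. The shares were then 45.5% of the ribosomal protein genes, 18.5% of all, 26.2% of the other higher genes and 26.9% of the lower. Of the matching genes, 4 are shown in windows of the same kind, with the pyrimidine run from the start in capitals. They lie at chr9:120571397-120571536 (+) for Rpl14, chr7:118116128-118116267 (-) for Rps15a, chr17:27635225-27635364 (-) for Rps10 and chr17:33955646-33955785 (-) for Rps18.
Rpl14: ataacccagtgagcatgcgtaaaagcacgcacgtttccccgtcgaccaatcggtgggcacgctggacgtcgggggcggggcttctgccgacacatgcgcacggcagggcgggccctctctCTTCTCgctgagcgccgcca
Rps15a: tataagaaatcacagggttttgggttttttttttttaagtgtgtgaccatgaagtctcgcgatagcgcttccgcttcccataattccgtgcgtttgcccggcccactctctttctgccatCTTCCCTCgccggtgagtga
Rps10: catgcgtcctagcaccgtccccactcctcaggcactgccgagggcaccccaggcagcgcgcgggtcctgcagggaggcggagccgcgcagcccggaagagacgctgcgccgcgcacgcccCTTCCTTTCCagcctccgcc
Rps18: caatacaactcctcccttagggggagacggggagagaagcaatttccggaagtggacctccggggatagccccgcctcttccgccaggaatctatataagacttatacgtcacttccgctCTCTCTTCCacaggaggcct
The UMIs in CD44-high and CD44-low were 361 and 64 for Rpl14, 254 and 60 for Rps15a, 212 and 39 for Rps10 and 165 and 18 for Rps18.

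Of 10 translation factors with enough UMIs, 5 were past 2-fold higher and none lower, with a median of 0.84, which is 0.47 above that of all genes. The gap was 0.14 under scran factors and 0.12 in plate rows D to F. The 5 were the elongation factors Eef1a1 (1.70), which brings aminoacyl-tRNA to the ribosome, Eef1g (2.27) and Eef2 (1.35), which moves the ribosome along the mRNA, and the initiation factor subunits Eif3c and Eif3e. Of 12 genes for subunits of eIF3, the complex that recruits the small subunit to mRNA, 7 had enough UMIs. All 7 were at least 2-fold higher, from 1.11 for Eif3i to 2.43 for Eif3h. The minimum can be reached mostly through CD44-high, as for Eif3e with 48 and 9 UMIs. Over all 12 genes the sums were 572 and 130 UMIs (log2 1.42, 1.14 to 1.70). This family was picked after its values had been seen. Eif1, on the same list, had a log2 ratio of -0.51 (-1.12 to 0.09). The nucleolar genes of ribosome assembly were mostly too low to compare. Together they had 240 and 69 UMIs (log2 1.08, 0.68 to 1.48), and in the CD44-mid wells 99.

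**Figure D2:**
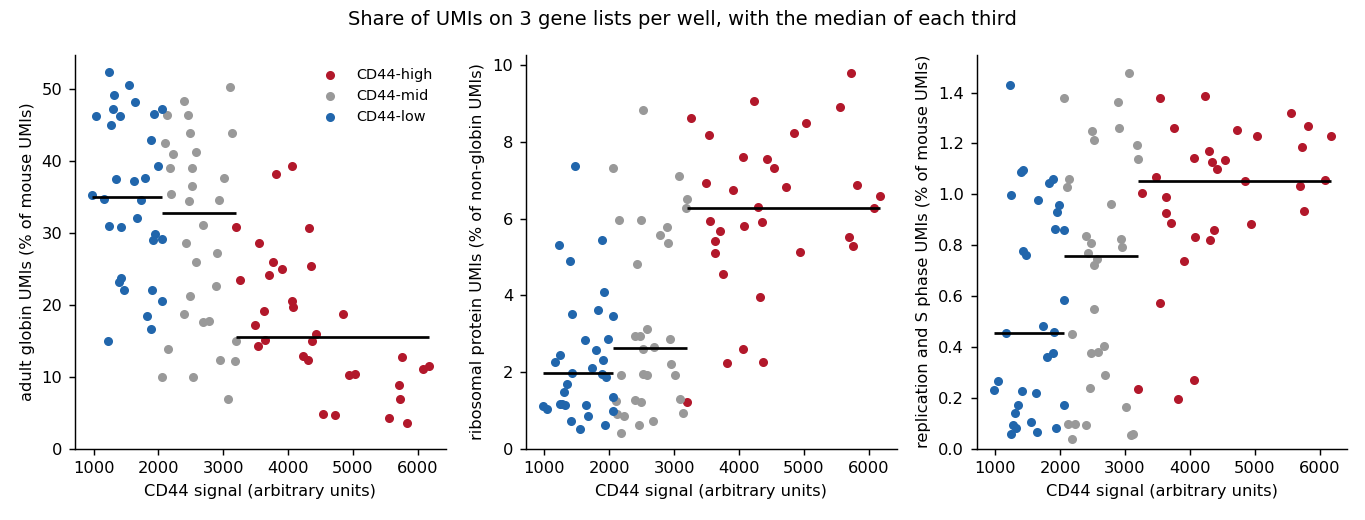
Each point is 1 erythroblast well, coloured by CD44 group, and black lines are the group medians. Adult globin UMIs (percent of mouse UMIs), ribosomal protein UMIs (percent of non-globin UMIs) and replication and S phase UMIs (percent of mouse UMIs) are plotted against the CD44 signal. The globin median goes from 15.5% in CD44-high to 34.9% in CD44-low and the ribosomal protein median from 6.29% to 1.97%.

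Transcripts of the respiratory chain were higher in CD44-high, but the mitochondrial ribosomal RNAs much less so. On the mitochondrial genome, 7 of the 8 mRNAs with enough UMIs were at least 2-fold higher. They reached 2.08 (1.72 to 2.45) for mt-Nd1, a complex I subunit, and 1.51 (1.20 to 1.82) for mt-Cytb of complex III, while mt-Co1, the core of complex IV, was at 0.85 (0.60 to 1.11). The sum of the mRNAs was 2832, 1178 and 654 UMIs in the order CD44-high, CD44-mid and CD44-low (log2 1.39, 1.27 to 1.52). Reads of these mRNAs could also have been counted on nuclear pseudogenes, which the sum leaves out. In CD44-high and CD44-low, Gm13341, closest to mt-Co2, had 563 and 135 UMIs, and Gm13340, closest to mt-Co1, had 305 and 103. The rRNAs mt-Rnr1 and mt-Rnr2 summed to 7605, 5374 and 3652 UMIs, with a log2 ratio of 0.34 (0.28 to 0.39), near the median of all genes. The intervals of mRNAs and rRNAs do not meet. Together the 25 genes of the list took a median of 3.33% of the UMIs per well in CD44-high and 2.41% in CD44-low.

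Among the nuclear genes of oxidative phosphorylation, 13 of 34 were at least 2-fold higher and none lower, with a median of 0.92 and a log2 ratio of the sum of 0.94 (0.84 to 1.04). By complex the sum was at 0.79 for complex I, 1.28 for complex III, 0.89 for complex IV and 1.06 for ATP synthase. The highest members were Ndufb8 (60 and 6 UMIs, 2.60) and Uqcrb (51 and 6 UMIs, 2.37), both with wide intervals, and the best covered was Cox6a1 (217 and 65 UMIs, 1.02).

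The cell cycle lists differed from each other. Of 24 replication and S phase genes, 9 were at least 2-fold higher in CD44-high and none lower, with a median of 0.94. That median was 0.57 above the median of all genes. A factor shared by a whole group, as in TMM or ERCC scaling, cannot change this gap. It was 0.53 with scran factors and 0.47 with the mean over wells. The MCM genes, whose products form the helicase that licenses and opens origins, had 4 of 5 members past 2-fold, among them Mcm3 (117, 41 and 22 UMIs in CD44-high, CD44-mid and CD44-low; 1.69) and Mcm4 (127, 61 and 24; 1.68). Dnmt1, the maintenance DNA methyltransferase, was at 1.21 and the licensing factor Cdt1 at 1.13. Rfc1, Rfc2 and Rfc4, subunits of the clamp loader grouped after the values had been seen, were between 1.74 and 2.34. Not every member followed. Rrm2, a ribonucleotide reductase subunit, was at -0.20 (-0.65 to 0.26) and Atad2 at -0.33 (-0.72 to 0.06). Per well the list took a median of 1.05% of UMIs in CD44-high (0.197% to 1.39%). In CD44-low the median was 0.456% (0.0583% to 1.43%) and the wells were spread widely, with quartiles at 0.172% and 0.939%.

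Of 29 genes of G2 and mitosis none was 2-fold higher and 1, Ube2c, was 2-fold lower in CD44-high. The median was -0.35, which is 0.71 below the median of all genes for CPM. The difference from that median was -0.74 with scran factors and -0.69 with the mean over wells. A factor shared by a whole group cannot change it. Mki67, the proliferation marker, had 4 to 82 UMIs per CD44-high well (median 33.5), 6 to 119 in CD44-mid (median 31) and 10 to 80 in CD44-low (median 28), with wide overlap and a log2 ratio of -0.56 (-0.68 to -0.43). Top2a, which untangles chromosomes, was at -0.09 (-0.29 to 0.11) and Ube2c, the ubiquitin-conjugating enzyme of the anaphase-promoting complex, at -1.01 (-1.25 to -0.76). The sum of the list was -0.38 (-0.44 to -0.32) for CPM but 0.29 per ERCC UMI, so its direction depends on the scaling.

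Of 7 genes of cell cycle exit and D cyclins, 1 was 2-fold higher in CD44-high, 1 was 2-fold lower and 5 were neither. The list median was -0.50, and the log2 ratio of the sum was 0.15 (-0.01 to 0.31). The lower gene, Cdkn2d, the p19 INK4 inhibitor of CDK4 and CDK6, had 47, 62 and 93 UMIs in CD44-high, CD44-mid and CD44-low (-1.71, -2.25 to -1.19). It was seen in 23 of 32 CD44-high and 27 of 32 CD44-low wells. Ccnd3, a D cyclin that activates these kinases, had 367, 185 and 90 UMIs (1.31, 0.97 to 1.65). Among 14 clustered histone genes none was 2-fold higher and 2 were 2-fold lower, with a median of -0.59. Hist1h2bc had 6, 31 and 48 UMIs (-3.72, -5.24 to -2.50), the lowest ratio of all genes compared, and was seen in 5 CD44-high and 20 CD44-low wells. Most replication-dependent histone mRNAs carry no poly(A) tail and a poly(A) protocol may miss them; the most abundant here was Hist1h2ap (1267, 1338 and 1109 UMIs, -0.53). H2A genes are near-identical and share reads. The log2 ratio of the histone sum was -0.59 (-0.67 to -0.51) for CPM, 0.08 per ERCC UMI, and -0.09 when wells of like size were compared (FSC-A of 100000 to 130000, 17 against 29 wells).

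Few genes of haem, membrane and iron, the specialised products of the red cell, were past 2-fold. Measured from the median of all genes, the haem list was at -0.39, the membrane list at -0.72 and the iron list at -0.02. In each of the haem and membrane lists 1 member lay above that median. Of 13 genes of haem synthesis and transport, 1 was 2-fold higher and 1 lower, with a median of -0.03. Alas2, the first and rate-limiting enzyme in erythroid cells, had 363, 455 and 425 UMIs (-0.95, -1.16 to -0.74), and Slc25a37 (mitoferrin, which brings iron into mitochondria) 355, 482 and 435 (-1.02, -1.22 to -0.81). Tmem14c, which carries a porphyrin intermediate across the inner mitochondrial membrane, went the other way with 461, 206 and 130 UMIs (1.10, 0.82 to 1.40). Cpox, the enzyme of a late step, was at -0.03 (-0.23 to 0.18). The list's sum was -0.18 for CPM and 0.49 per ERCC UMI.

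None of 15 membrane and skeleton genes was past 2-fold, with a median of -0.35. Slc4a1, the anion exchanger band 3, was at -0.57 (-0.70 to -0.44) and Aqp1, the water channel, at 0.03. Per well the list took 1.43% of UMIs in CD44-high and 1.84% in CD44-low at the median. Of 4 iron genes none was past 2-fold. The ferritin heavy chain Fth1 was at 0.53 (0.39 to 0.68) and the transferrin receptor Tfrc at 0.12 (-0.10 to 0.34). Of 7 genes of gas exchange and protection from oxidation 2 were 2-fold higher and none lower (median 0.24), a share near the 27.0% of all genes. Among them Car2 was at 0.04 (-0.09 to 0.16, with 1450 and 857 UMIs). Car1, the other main carbonic anhydrase of the red cell, had 260, 96 and 55 UMIs (1.52, 1.09 to 1.97). Sod1 was at 1.05 and Gpx1 at -0.33.

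Of 11 erythroid transcription factors none was 2-fold higher and 2 were 2-fold lower, with a median of -0.23. These were Nfe2, a subunit of the NF-E2 activator of globin genes (36, 53 and 56 UMIs, -1.36, -2.01 to -0.73), and Klf3, a repressor that shares sites with Klf1 (158, 184 and 204 UMIs, -1.09, -1.40 to -0.78). Gata1, the main erythroid regulator, was at 0.49 (-0.01 to 1.02) with 109, 47 and 47 UMIs, and Klf1 at -0.13 (-0.47 to 0.20). Of 8 genes of organelle and protein clearance, Ube2o, which marks ribosomal proteins and other targets for removal in late erythroid cells, was 2-fold lower in CD44-high (33, 32 and 46 UMIs, -1.20, -1.89 to -0.53), and Bnip3l, the mitophagy receptor, was at -0.02.

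Of 13 proteasome subunits 4 were 2-fold higher and none lower (median 0.80), a share near the 27.0% of all genes. Of 8 chaperones 6 were higher (median 1.23). These were Hsp90ab1 (124 and 19 UMIs, 1.98) and the chaperonin subunits Tcp1, Cct2, Cct4, Cct5 and Cct7. Neither 9 actin and tubulin genes nor 12 chromatin proteins had a member past 2-fold, with medians of 0.12 and -0.17. Genes of glycolysis, early progenitors and immediate early response had too few UMIs, with 112 and 37, 73 and 55, and 48 and 37 UMIs over the lists in CD44-high and CD44-low. Kit, the receptor behind the c-Kit signal, had 8 and 3 UMIs.

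**Figure D3:**
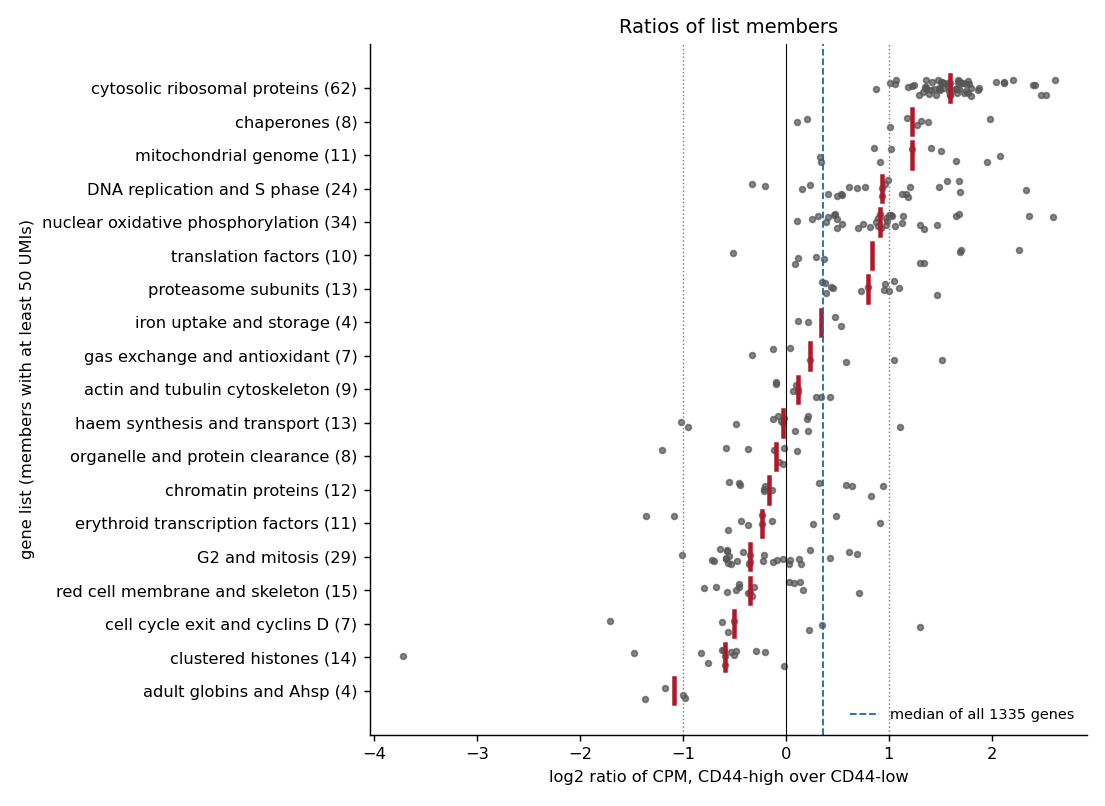
Each point is a gene with at least 50 UMIs, placed by the log2 ratio of CPM, CD44-high over CD44-low, in the row of its list. Red bars are list medians, the dashed line is the median of all 1335 genes (0.37) and dotted lines mark 2-fold. Ribosomal proteins (median 1.59) lie farthest to the right and adult globins (median -1.09) farthest to the left.

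The genes with the most UMIs were Hbb-bs, Hba-a1 and Gm42418, a noncoding RNA on the opposite strand within a ribosomal RNA gene (22302, 20381 and 14587 UMIs, -0.11). Of the 12 genes with the highest ratios, 10 were pseudogenes and 2 protein coding. The highest was Gm13339 (85, 17 and 5 UMIs, 3.37), whose closest coding transcript is mt-Nd2, and most of the others were copies of ribosomal protein genes. Lsm4 (ENSMUSG00000031848), part of the ring that binds U6 snRNA and of the mRNA decapping complex, had 70, 19 and 5 UMIs (3.08, 1.79 to 4.75) and was seen in 25 and 4 wells. C1qtnf12, a secreted C1q family protein, had 54, 13 and 5 UMIs (2.71, 1.40 to 4.39). Among protein-coding genes looked up after the values were seen, Acp5, the tartrate-resistant acid phosphatase, had 116, 45 and 12 UMIs (2.55, 1.69 to 3.54), in 27 CD44-high and 7 CD44-low wells.

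The 12 lowest ratios were those of Hist1h2bc and Cdkn2d, described above, with Tent5c, Gda, Hbb-bh3, Gpcpd1, Map4k5, Mxd3, Rsad2, Hist1h2ae, Tmcc2 and Ube2b. Tent5c, a poly(A) polymerase, had 30, 70 and 93 UMIs (-2.35, -3.00 to -1.75), of which 27 were in a single CD44-low well, and was seen in 15 CD44-high and 24 CD44-low wells. Mxd3, a MYC antagonist of the MAX network, had 29, 53 and 52 (-1.56), and Ube2b, a ubiquitin-conjugating enzyme, 21, 27 and 33 (-1.37). Rsad2, an interferon-induced antiviral gene, had 75, 119 and 130 UMIs, but in fewer CD44-low wells (19) than CD44-high wells (23), with 36 UMIs in 1 of them. Gda had 19, 64 and 43 UMIs, and its level in granulocyte wells, 5.06 UMIs per well, was above the 1.34 of CD44-low. Hbb-bh3 is a globin pseudogene for which no close coding transcript was found.

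**Figure D4:**
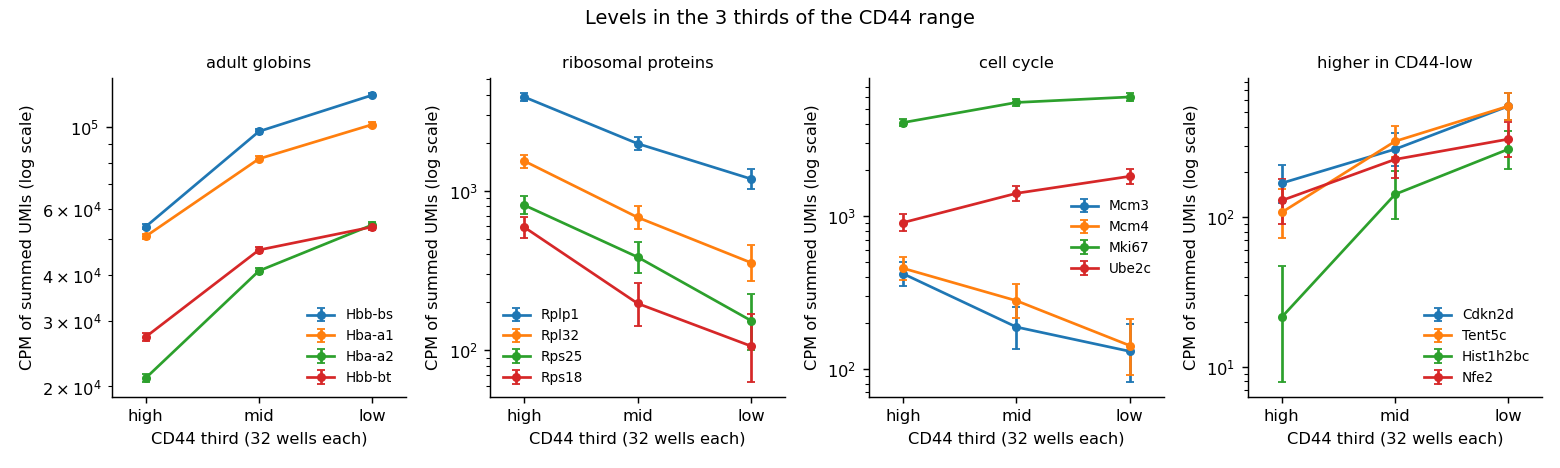
CPM of summed UMIs on a log axis in CD44-high, CD44-mid and CD44-low (32 wells each), with 95% exact Poisson intervals for counting error. Adult globins and the 4 genes of the right panel go up from left to right, ribosomal proteins and Mcm3 and Mcm4 go down, and for each gene plotted CD44-mid lies between the other groups.

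Markers of other cells were low. The 8 granulocyte markers had 389, 363 and 395 UMIs in CD44-high, CD44-mid and CD44-low, which is nearly the same number per well in each, and per well took 0.0520% to 2.58% of UMIs in CD44-high and 0.0149% to 1.09% in CD44-low. Among them, 3 markers, Lcn2, Ngp and Retnlg, are among the 35 genes counted as 2-fold lower. Their part in that count was not tested. B lymphocyte markers had 11, 20 and 14 UMIs, T lymphocyte markers 5, 5 and 5, stem cell markers 33, 19 and 22, macrophage markers 3, 6 and 1, and megakaryocyte and platelet markers 21, 10 and 10. Erythroblast markers, which are mostly globins by UMIs, took 4.31% to 40.9% of the UMIs per CD44-high well and 16.3% to 54.7% per CD44-low well.

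Within a group the measures still varied together. Over the 32 CD44-low wells Spearman's rho between Ter119 and the ribosomal protein share was -0.72, over CD44-mid -0.79 and over CD44-high -0.48. For CD44 itself rho was 0.12, 0.26 and 0.22 in these groups. The groups were cut on CD44, which narrows its range within each, so these values cannot be set against those of Ter119. Over all 96 wells the values were -0.68 for Ter119 and 0.60 for CD44. Within CD44-high the globin share followed CD44 with a rho of -0.70, and within the other groups with -0.23. The wells share 1 mouse and plate, and the ribosomal protein share also went with the number of UMIs per well (0.54 over 96 wells), so these values describe the cells and carry no test.

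Cell size and plate position moved with CD44, and the comparison was repeated within limits on them. With wells of FSC-A 100000 to 130000 the globin log2 ratio was -0.83 and the ribosomal protein ratio 1.35, with 153 genes 2-fold higher and 17 lower. In plate rows D to F the ratios were -1.22 and 1.67, with 305 and 38 genes. In both limits together, tried after the data had been seen, 8 CD44-high and 27 CD44-low wells remained, with ratios of -0.64 and 1.33. Replication and S phase genes were at 0.68 within the size limits and 0.79 within the plate rows, against 0.78 for all wells, and at 0.55 within both. Their median was then 0.25 against 0.13 for all genes, a gap of 0.12 where all wells gave 0.57.

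**Figure D5:**
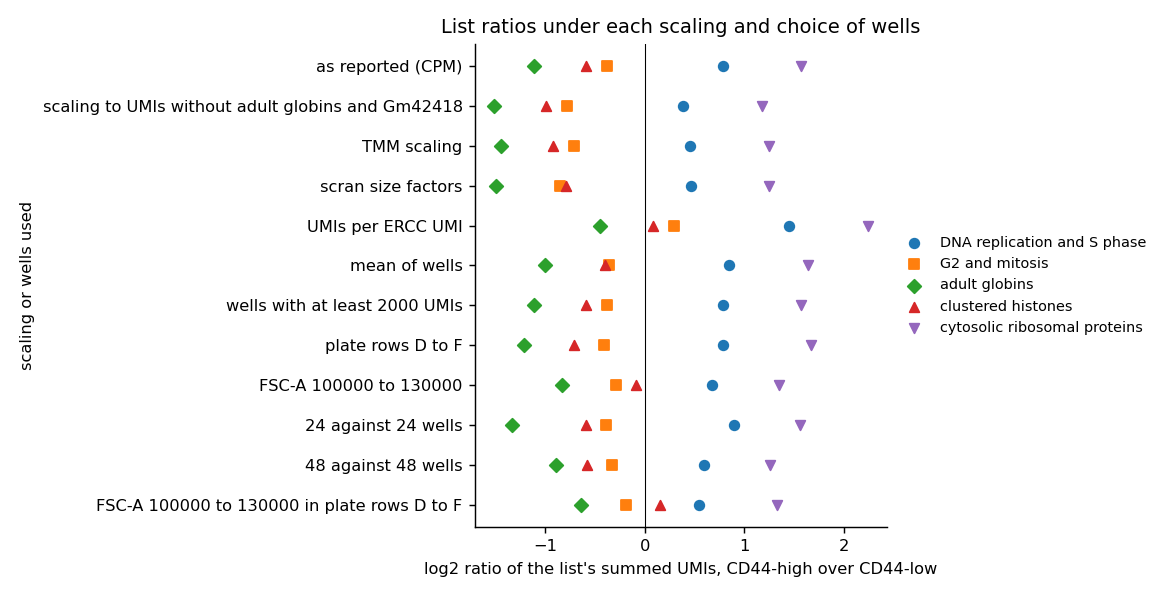
Log2 ratio of the summed UMIs of 5 gene lists, CD44-high over CD44-low, under each scaling and choice of wells. Ribosomal proteins and S phase genes are above 0 and adult globins below 0 in every row. G2 and mitosis is above 0 per ERCC UMI (0.29), and clustered histones are above 0 per ERCC UMI (0.08) and within both limits on size and plate row (0.15).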

How the data were processed

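Single cells were index-sorted and counted by CEL-seq2. The authors deposited a table of UMI counts per gene and well, made with scPipe and Rsubread's default aligner. No build, annotation, version or strand setting was found; these are not given in the sources used, and the labels give contradictory layouts for read 1. The deposited counts held 9 columns that match no sample, which were not used, and no doublet caller was run. Symbols and coordinates came from GENCODE M21 (build GRCm38; the authors may have used another), and promoters from RefSeq. The index fluorescence is the authors' deposited score in arbitrary units.

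Wells were ranked by CD44 and UMIs were summed over 32 wells a group. Totals were 279069 and 169138 UMIs. Genes with at least 50 UMIs in both groups together were compared by the ratio of CPM, with exact conditional binomial intervals (95%, Clopper-Pearson). Sums under 3 UMIs were set to 3. Sums have exact Poisson intervals. UMIs were thinned to 2000 per well for the number of genes. In Poisson counts simulated for 1328 genes, without spread between cells or mice, the interval covered the true ratio in 96.7%. Of 1131 unchanged genes there, 3 passed 2-fold. This checks how the interval is calculated and gives no rate of false calls in these data. Pseudogenes were matched to coding transcripts with blastn 2.17.0. Python 3.11.15, numpy 2.4.6, pandas 2.3.3, scipy 1.17.1 and matplotlib 3.10.9 were used, and R 4.3.3 with scran 1.30.0 and edgeR 4.0.16 (TMM factors only) for other scalings.

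The genes named were the 12 highest and 12 lowest ratios among genes seen in 8 or more of the 32 wells on the higher side, the 3 most abundant genes of each group, and list members with most UMIs or past 2-fold. The members and lists were chosen with earlier results of these data known. Subunit families were grouped after their values were seen. Some listed genes were not analysed here. Alternatives were other scalings, minimum counts, numbers of wells, plate rows and cell size.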

Additional observations from a re-analysis of the deposited data

How the results depend on the processing

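Of the values that answer the comparison 56 stayed within the limits set for them while 74 did not. The limits were counting error for list ratios and globin shares, 1.5 times for counts of genes, and fixed margins for the remaining values. The tally includes counts of genes at other minimums and choices of wells, which cannot be set against the main comparison. Globin shares without Gm42418 were entered as outside without a limit being applied. No paired analysis was possible because the replicate numbers only name wells in accession order and the comparison gives no test. Lists are given in the order adult globins, ribosomal proteins, S phase, G2 and mitosis, and histones, as log2 ratios of sums. Leaving globins and Gm42418 out of the total gave 237 genes higher and 108 lower, with -1.51, 1.18, 0.38, -0.78 and -0.99. TMM gave 89 lower, with -1.44, 1.25, 0.46, -0.71 and -0.92. Scran factors gave 168 lower, with -1.498, 1.25, 0.47, -0.85 and -0.79. Per ERCC UMI there were 690 and 6, with -0.45, 2.24, 1.45, 0.29 and 0.0813, so the last 2 lists lay on the other side of 0. CD44-mid then lay between for 66.7% of lower and 74.2% of all genes. The mean of wells gave -1.00 for globins, 1.64 for ribosomal proteins and -0.40 for histones, with globin shares of 17.5% in CD44-high and 35.0% in CD44-low.

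A minimum of 20 UMIs gave 858 and 96 genes, 100 UMIs 193 and 16, and 1 UMI 1381 and 348. The number of genes compared changed with each minimum and each choice of wells. The gene counts in this paragraph therefore cannot be set against those of the main comparison. With FSC-A of 100000 to 130000 there were 153 and 17 genes, with -0.83, 1.35, 0.68, -0.29 and -0.0865 and a CD44-high globin share of 18.7%. With plate rows D to F added, an alternative chosen after seeing the data, there were 80 and 20 genes, 28 ribosomal protein genes past 2-fold, list values of -0.64, 1.33, 0.55, -0.19 and 0.15, and globin shares of 21.4% and 33.4%. Rows D to F alone gave -1.22 for globins, 1.67 for ribosomal proteins and -0.71 for histones, with shares of 14.1% and 32.8%. With 24 against 24 wells globins were at -1.33 and S phase at 0.89, with shares of 13.5% and 33.9%. With 48 against 48 wells there were 18 lower genes, globins at -0.89, ribosomal proteins at 1.26 and S phase at 0.60, with shares of 17.6% and 32.7%. Without Gm42418 the shares were 16.6% and 36.3%.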
